A study of Homo sapiens with 6 samples.

Results

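The mitochondrial ribosomal protein genes, whose symbols begin with MRPL or MRPS and a digit, were examined in BE(2)-C neuroblastoma cells. They were taken as the distinct gene names of that form in either H3K4me3 peak list or either promoter table of the study, which gave 76 of 16500 names, 47 MRPL and 29 MRPS. They include 74 of the 77 protein-coding RefSeq symbols of this form, together with MRPS36 under its older symbol and 1 pseudogene. The other 3 symbols (MRPL12, MRPL57 and MRPL58) were not among the names collected, so the counts below leave out genes without a listed name of this form. MRPL58 is the newer symbol of ICT1, which was listed in both libraries under that older name and is treated below with the other subunits. BE(2)-C is a human neuroblastoma line, established in culture, in which MYCN is amplified. The cells received a control siRNA or WDR5 siRNA-1 for 24 hours, without any other agent or genetic change named in the labels. The study holds 6 libraries, with 1 H3K4me3, 1 IgG and 1 input library per siRNA, and the peak lists come from the H3K4me3 libraries. The N-Myc classes were taken from promoter tables that name no library, and none of the 6 libraries is an N-Myc library. No group holds replicates, so every peak call describes the H3K4me3 libraries alone and no test across samples exists.

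Mitochondrial ribosomes translate the few proteins encoded by mitochondrial DNA, which are subunits of the oxidative phosphorylation complexes. All of their proteins are encoded in the nucleus and imported. MRPL names denote proteins of the large subunit, which forms peptide bonds, and MRPS names proteins of the small subunit, which reads the mRNA, although MRPS30 and MRPS18A sit in the large subunit of the assembled human particle. H3K4me3, trimethylation of histone H3 at lysine 4, marks active promoters, and WDR5 is a core subunit of the enzymes that write it. N-Myc, the product of MYCN, is a MYC-family transcription factor, and genes of ribosome and mitochondrial function are classical MYC-family targets.

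The peak lists gave gene names with an H3K4me3 peak within 1 kb of the transcription start site (TSS), 13618 distinct names with control siRNA and 11870 with WDR5 siRNA. Promoter tables gave the hg19 TSS and gene of 3254 promoters labelled N-Myc-binding and 6331 labelled non-binding. How and in which cells binding was measured was not given in the sources used here. The names came without levels, reads or depth, so a listed name is a peak call and 2 listings do not show equal H3K4me3. Of 9 adrenergic neuroblastoma markers, 7 were listed in both libraries and TH and DBH with control siRNA only. Of 10 markers of blood, epithelium, liver, endothelium and muscle, 10 were in neither list.

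Nearly all mitochondrial ribosomal protein genes carried an H3K4me3 peak call with either siRNA. Of the 76 names, 74 were listed in both libraries, and MRPL1 and MRPL28 were listed with control siRNA only. No member was listed with WDR5 siRNA only, a class that held 0.817% of all WDR5 siRNA names. The control-only share was 2.63% (2 of 76, exact 95% interval over genes 0.320 to 9.18%), against 13.5% of all names with a control peak. Intervals here are over genes taken as independent, and leave out error between libraries or replicates. The whole-list count of 76 control peaks is partly set by how the names were collected, since a gene in neither list and neither table could not enter. Among the 56 members found in a promoter table, where entry did not need a peak, 56 had a control peak (interval 93.6 to 100%), against 70.5% of all promoters in the tables.

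Both control-only members encode large-subunit proteins that have a counterpart in the bacterial ribosome. Of 47 MRPL names, 2 were control-only (4.26%, interval 0.520 to 14.5%). Of 29 MRPS names, 0 were, and a count of 0 allows a share of up to 10.3%. Of the 43 members on a list of bacterial counterparts, 2 were control-only (4.65%, interval 0.568 to 15.8%). Of the 32 other protein-coding members, 0 were, which allows up to 9.38%. The list holds MRPS18C but not MRPS18A, MRPS18B or MRPS28, so it is not a strict division by ancestry. The intervals overlapped in both divisions. The pseudogene name, MRPL45P2, was listed in both libraries.

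MRPL1 encodes the mitochondrial counterpart of ribosomal protein L1, part of the mobile stalk beside the tRNA exit site. Its listed TSS lies on chromosome 4 at position 78783805 (hg19), and the promoter was N-Myc-binding. Its row there was number 2967, at 91.2% of the table length. Its neighbours in the control list were mostly listed in both libraries. CNOT6L, a subunit of the mRNA deadenylation complex, preceded it and FRAS1, an extracellular matrix gene, followed it, both listed in both libraries, while ANXA3, the second name after it, was control-only. MRPL28, a large-subunit protein with a bacterial L28 counterpart, was in neither promoter table, so no hg19 TSS or N-Myc class belongs to it here. The 6 control-list names around MRPL28 were ARHGDIG, PDIA2, AXIN1, TMEM8A, LOC100134368 and NME4, and 6 of 6 were listed in both libraries. Of all names with a control peak only 13.5% were control-only, so neighbours listed in both libraries are the common case. The neighbours of MRPL1 and MRPL28 in list order thus say little about their surroundings.

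The promoters of these genes are shown because they are the 2 members whose peak call was missing after WDR5 siRNA. Each is the 250 bases before the RefSeq start, 5′ to 3′, from GRCh38.p14, at chr4:77862580-77862829 on the plus strand for MRPL1 and chr16:370539-370788 on the minus strand for MRPL28. Capitals were reserved for the E-box (CACGTG), the ETS core (CCGGAAG) and the YY1 core (AAGATGGCG) on either strand, and neither stretch holds any of them.
MRPL1: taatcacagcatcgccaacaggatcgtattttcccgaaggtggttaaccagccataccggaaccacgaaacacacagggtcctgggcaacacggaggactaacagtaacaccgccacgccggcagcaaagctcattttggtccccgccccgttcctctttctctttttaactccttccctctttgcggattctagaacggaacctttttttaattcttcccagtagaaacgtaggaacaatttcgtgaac
MRPL28: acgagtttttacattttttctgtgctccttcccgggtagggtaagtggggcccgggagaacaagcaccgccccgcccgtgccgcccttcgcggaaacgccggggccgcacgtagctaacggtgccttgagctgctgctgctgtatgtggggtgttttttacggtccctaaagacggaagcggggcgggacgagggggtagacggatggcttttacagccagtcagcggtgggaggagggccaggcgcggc
The 300-base RefSeq windows around these starts, with 50 more bases after the start, had 51.7% G+C at MRPL1 and 63.7% at MRPL28. The observed-to-expected CpG ratio was 1.01 at MRPL1 and 0.953 at MRPL28. The members' windows had a median of 60% G+C (range 43.3 to 82.0%) and a median CpG ratio of 0.868 (range 0.402 to 1.16), MRPL1 and MRPL28 included.

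Mitochondrial ribosomal protein promoters were mostly in the N-Myc-binding table. Of the 56 members in a promoter table, 43 were N-Myc-binding and 13 non-binding, a binding share of 76.8% (interval 63.6 to 87.0%). Of all promoters in the tables, 33.9% were N-Myc-binding. Since all 56 members had a control peak, the closer background is the promoters with a control peak, of which 45.7% were N-Myc-binding, or those listed in both libraries, at 49.5%. The members' interval lay above each of these shares. The 20 other members were in neither table, and 73.7% of members were in one of them, against 49.7% of control names.

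The binding share was similar for MRPL and MRPS names, which do not follow the subunits exactly. It was 78.8% for MRPL names (26 of 33, interval 61.1 to 91.0%) and 73.9% for MRPS names (17 of 23, interval 51.6 to 89.8%). It was 80.0% for members on the list of bacterial counterparts (24 of 30, interval 61.4 to 92.3%) and 73.1% for the other protein-coding members (19 of 26, interval 52.2 to 88.4%). The intervals overlapped widely, so no difference between these groups was detectable with this number of genes.

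The 26 N-Myc-binding MRPL promoters were those of MRPL1, MRPL2, MRPL3, MRPL9, MRPL13, MRPL15, MRPL16, MRPL17, MRPL18, MRPL20, MRPL21, MRPL22, MRPL27, MRPL30, MRPL32, MRPL36, MRPL41, MRPL43, MRPL44, MRPL45, MRPL47, MRPL49, MRPL50, MRPL51, MRPL52 and MRPL54. Among them MRPL3 and MRPL16 encode counterparts of bacterial proteins close to the catalytic centre, and MRPL22 and MRPL45 encode proteins at the peptide exit tunnel. The 17 N-Myc-binding MRPS promoters were those of MRPS2, MRPS5, MRPS7, MRPS9, MRPS15, MRPS16, MRPS18A, MRPS18B, MRPS23, MRPS24, MRPS26, MRPS27, MRPS28, MRPS30, MRPS33, MRPS35 and MRPS36. MRPS36 carries the RefSeq symbol KGD4 and is now known as a component of the 2-oxoglutarate dehydrogenase complex of the citric acid cycle. The 13 non-binding promoters were those of MRPL14, MRPL19, MRPL37, MRPL39, MRPL46, MRPL48, MRPL53, MRPS6, MRPS10, MRPS11, MRPS17, MRPS22 and MRPS25. The 20 members in neither table were MRPL4, MRPL10, MRPL11, MRPL23, MRPL24, MRPL28, MRPL33, MRPL34, MRPL35, MRPL38, MRPL40, MRPL42, MRPL45P2, MRPL55, MRPS12, MRPS14, MRPS18C, MRPS21, MRPS31 and MRPS34. MRPS12, the counterpart of the bacterial decoding protein S12, is in this last group. The 56 promoters lay on 18 chromosomes, with at most 6 on any of them.

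The members' calls were also set beside those of their own N-Myc class. Among N-Myc-binding promoters with a control peak, 1 of 43 members was control-only (2.33%, interval 0.0589 to 12.3%), against 129 of 3087 overall (4.18%). Among non-binding promoters, 0 of 13 members were, which allows up to 23.1%, against 656 of 3675 overall (17.9%). Among names in neither table, 1 of 20 members was (5.0%, interval 0.127 to 24.9%), against 15.5% overall. The members' share was below the overall share in each class, and their interval held the overall share each time. No single class was thus large enough to tell the members from the rest of it. The classes were not combined, so whether N-Myc class accounts for the low control-only share of the members was not tested. Non-binding members all had a control peak, 13 of 13 (interval 75.3 to 100%), where 58.0% of all non-binding promoters did.

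**Figure D1:**
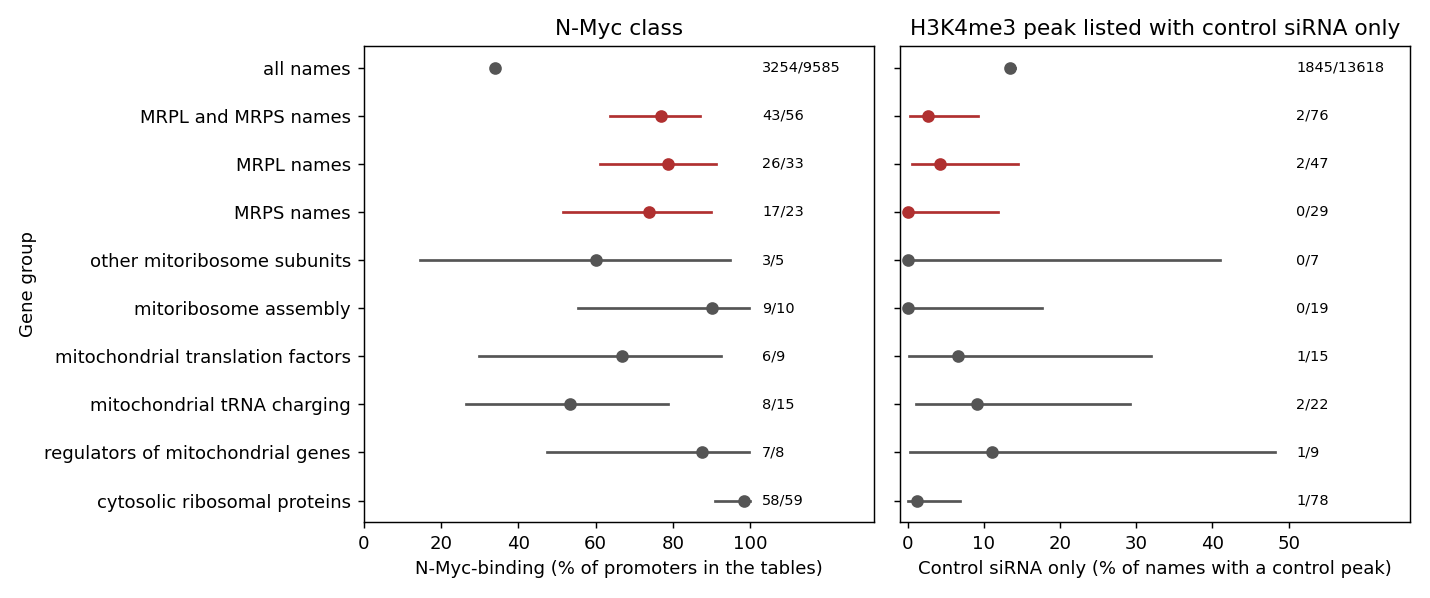
Share of promoters in the N-Myc-binding table (left, percent) and share of names with a control peak that were listed with control siRNA only (right, percent), for mitochondrial ribosomal protein names (red) and other gene groups (grey), with points for shares, lines for exact 95% intervals over genes, and counts at the right of each panel. The 56 MRPL and MRPS names in a promoter table stand at 76.8% N-Myc-binding, against 33.9% of all 9585 promoters, and the 76 with a control peak at 2.63% control-only, against 13.5% of all 13618 names with one.

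The rows of the promoter tables are in an order with no stated meaning, so the members' places in it are given as a description. In the N-Myc-binding table the 43 members were spread over the whole table, from 0.184 to 99.4% of its length, with a median of 55.0%. All N-Myc-binding promoters listed in both libraries had a median of 45.6%, and control-only ones 90.3%. The first members were MRPL20 at row 6 (chromosome 1, position 1342693), MRPS2 at row 95 (chromosome 9, position 138392477) and MRPS7 at row 107 (chromosome 17, position 73257749). MRPS7 encodes the counterpart of a bacterial protein that organises the head of the small subunit. The last were MRPS18B at row 3044 (chromosome 6, position 30585486), MRPL45 at row 3118 (chromosome 17, position 36452989) and MRPL22 at row 3234 (chromosome 5, position 154320633).

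The last 10% of the N-Myc-binding table was rich in missing calls, and 7 members lay there. Of 162 promoters with a control peak in it, 68 were control-only (42%, interval 34.3 to 50%). Of the 7 members there, MRPL1 was control-only, while MRPL30, MRPS33, MRPL13, MRPS18B, MRPL45 and MRPL22 were listed in both libraries. MRPL13 held row 2956 and MRPS33 row 2940, close before MRPL1 at row 2967.

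In the non-binding table the 13 members stood early, from 5.24 to 48.3% of the length, with a median of 16.2%. All non-binding promoters listed in both libraries had a median of 23.9%. The first were MRPS17 at row 332 (chromosome 7, position 56019611), MRPL14 at row 505 (chromosome 6, position 44095191) and MRPS11 at row 526 (chromosome 15, position 89010684). The last were MRPL53 at row 2133 (chromosome 2, position 74699942), MRPL48 at row 2653 (chromosome 11, position 73498917) and MRPS10 at row 3056 (chromosome 6, position 42185633). In the first 50% of this table, where the 13 members lay, 99.8% of all promoters had a control peak and 8.51% of those were control-only (269 of 3160). The order of the table itself follows the peak calls, so these shares are no separate evidence on the members.

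**Figure D2:**
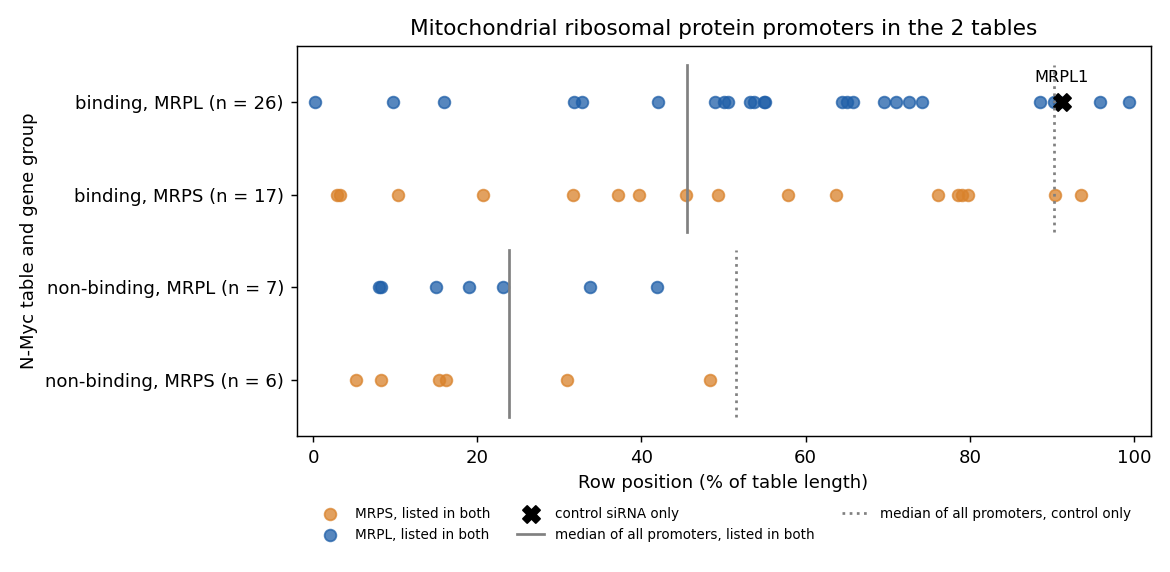
Row position of each MRPL (blue) and MRPS (orange) promoter in the N-Myc-binding and non-binding tables, as a percent of table length. Circles are genes listed in both libraries and the cross is MRPL1, listed with control siRNA only at 91.2%. Grey lines give the medians of all promoters listed in both libraries (solid, 45.6% and 23.9%) and of control-only promoters (dotted, 90.3% and 51.5%).

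Many of the members started close to another listed gene. Of the 56 members in the tables, 16 had another listed TSS within 1 kb (28.6%, interval 17.3 to 42.2%), against 6.07% of all promoters. By class the numbers were 13 of 43 N-Myc-binding members (30.2%, interval 17.2 to 46.1%), against 12.3% of all N-Myc-binding promoters, and 3 of 13 non-binding members (23.1%, interval 5.04 to 53.8%), against 2.86% of all non-binding promoters. The interval of the N-Myc-binding members lay above the background share of that class. The 3 non-binding members include MRPL46 and MRPS11, which are each other's partner and so are not separate counts. Their interval therefore does not settle whether that class stands above its background. All 56 members had a control peak, while the background shares also take in promoters without one. The tables hold only part of all genes, so partners outside them were not counted.

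The 16 members formed 15 pairs, with a median distance of 51 bp between the starts (range 9 to 827 bp). In 11 pairs the RefSeq strands showed genes transcribed away from each other, and the orientation of the other 4 was not analysed here. The closest starts were those of MRPL13 and MTBP, 9 bp apart (chromosome 8, position 121457647 for MRPL13). MTBP encodes a partner of MDM2 that acts in DNA replication origin firing. MRPL21 and IGHMBP2, a helicase gene, were 16 bp apart, and MRPL27 and EME1, a subunit gene of a DNA repair endonuclease, 19 bp apart. MRPL43 lay 21 bp from C10orf2, which encodes the helicase that unwinds mitochondrial DNA. MRPS7 lay 42 bp from GGA3, a trans-Golgi adaptor gene, and MRPL30 lay 50 bp from MITD1, a cytokinesis gene. These 6 pairs were N-Myc-binding on each side.

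MRPL49 lay 44 bp from FAU, which encodes a cytosolic small-subunit ribosomal protein fused to a ubiquitin-like peptide. MRPL46 and MRPS11, a large- and a small-subunit gene, started 51 bp apart on chromosome 15 (positions 89010633 and 89010684) and were both N-Myc-non-binding. MRPS27 lay 116 bp from PTCD2, a mitochondrial RNA-processing gene, and MRPL47 lay 141 bp from NDUFB5, a subunit of respiratory complex I. The other pairs were MRPL32 and PSMA2, a proteasome subunit gene (134 bp), MRPL14 and TMEM63B, an ion channel gene (185 bp, non-binding), MRPL50 and ZNF189, a zinc finger gene (217 bp), MRPL18 and TCP1, a subunit of the cytosolic chaperonin (757 bp), and MRPL51 and NCAPD2, a condensin subunit gene (827 bp).

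All 15 pairs shared their N-Myc class and their peak listing. This is the general pattern of the tables, since 288 of all 291 pairs of starts within 1 kb shared the class and 291 of 291 shared the listing. Starts this close can share a peak, so a pair is not a set of independent calls. Members with no other listed start within 1 kb gave a binding share of 75% (30 of 40).

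**Figure D3:**
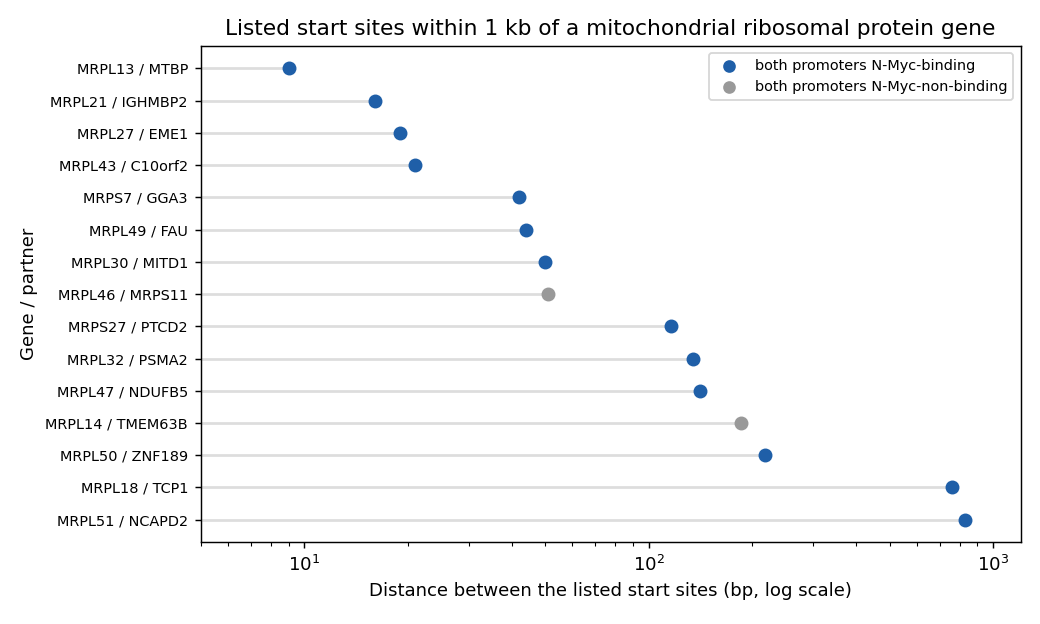
Distance in bp (log scale) between the listed start of a mitochondrial ribosomal protein gene and that of its partner, for the 15 pairs within 1 kb. Blue points are pairs with both promoters N-Myc-binding (13 pairs) and grey points pairs with both non-binding (2 pairs), and 7 of 15 pairs lie within 50 bp.

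The promoters were then searched for short binding motifs in RefSeq windows from 250 bases before to 50 bases after each start (GRCh38.p14). A window was found for 67 of the 76 members, and MRPL2, MRPL10, MRPL13, MRPL15, MRPL21, MRPL23, MRPL35, MRPL45P2 and MRPS28 were not searched. The RefSeq start need not be the hg19 start in the tables. A match is a string of letters, not a bound site. The E-box CACGTG, the core sequence recognised by N-Myc with MAX, was in 7 of 67 members' windows (10.4%, interval 4.30 to 20.3%), against 7.43% of all RefSeq windows and 10.7% of windows of names listed in both libraries. Among N-Myc-binding members it was in 5 of 38 (13.2%, interval 4.41 to 28.1%), against 15% of all N-Myc-binding promoters. Among non-binding members it was in 1 of 13 (7.69%, interval 0.195 to 36.0%), against 6.23% of all non-binding promoters. Both intervals held the background share of their class, but they are wide and allow shares well above or below it. In the N-Myc-binding class, 33 of 38 members' windows held no CACGTG. With the variant CACGCG, and likewise CATGTG, added on either strand, 13 of 38 windows of N-Myc-binding members matched (34.2%), against 39.0% of all N-Myc-binding promoters.

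The 7 genes with an E-box were MRPS36, MRPL49, MRPL36, MRPL45 and MRPL22 among N-Myc-binding members, MRPL37 among non-binding ones and MRPS18C in neither table. Its first base lay 56 bases before the RefSeq start at MRPL36, 126 at MRPS36, 133 at MRPL45, 170 at MRPL37, 176 at MRPL22, 179 at MRPS18C and 245 at MRPL49. In 0 of these 7 windows it began within 50 bases of the start, against 40.4% of matching windows of names listed in both libraries. All 7 genes were listed in both libraries. The 6 promoters with an N-Myc class are shown as the 250 bases before the RefSeq start, 5′ to 3′, with the E-box in capitals, to let the letters around it be compared. MRPS36 is at chr5:69217510-69217759 on the plus strand, MRPL49 at chr11:65121933-65122182 on the plus strand and MRPL36 at chr5:1799838-1800087 on the minus strand. MRPL45 is at chr17:38296918-38297167 on the plus strand, MRPL22 at chr5:154940823-154941072 on the plus strand and the non-binding MRPL37 at chr1:54199917-54200166 on the plus strand.
MRPS36: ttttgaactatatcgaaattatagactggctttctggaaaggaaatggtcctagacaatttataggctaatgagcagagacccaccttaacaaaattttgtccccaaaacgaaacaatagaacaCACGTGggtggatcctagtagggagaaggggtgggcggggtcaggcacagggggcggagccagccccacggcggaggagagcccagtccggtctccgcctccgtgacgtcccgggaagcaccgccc
MRPL49: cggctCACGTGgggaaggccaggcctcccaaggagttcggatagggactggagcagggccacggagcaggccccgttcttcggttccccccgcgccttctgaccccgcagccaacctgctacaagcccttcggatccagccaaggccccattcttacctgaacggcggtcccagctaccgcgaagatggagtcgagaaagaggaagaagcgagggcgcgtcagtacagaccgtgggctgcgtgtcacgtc
MRPL36: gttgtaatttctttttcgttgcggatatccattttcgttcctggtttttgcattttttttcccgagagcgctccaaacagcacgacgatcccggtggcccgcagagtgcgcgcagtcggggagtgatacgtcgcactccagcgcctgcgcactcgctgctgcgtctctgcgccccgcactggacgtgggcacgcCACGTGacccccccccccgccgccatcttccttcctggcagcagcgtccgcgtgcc
MRPL45: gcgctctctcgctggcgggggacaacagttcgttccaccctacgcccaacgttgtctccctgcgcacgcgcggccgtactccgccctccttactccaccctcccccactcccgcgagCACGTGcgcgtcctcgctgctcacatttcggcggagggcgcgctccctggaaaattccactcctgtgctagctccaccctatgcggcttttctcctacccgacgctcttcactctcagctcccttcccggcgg
MRPL22: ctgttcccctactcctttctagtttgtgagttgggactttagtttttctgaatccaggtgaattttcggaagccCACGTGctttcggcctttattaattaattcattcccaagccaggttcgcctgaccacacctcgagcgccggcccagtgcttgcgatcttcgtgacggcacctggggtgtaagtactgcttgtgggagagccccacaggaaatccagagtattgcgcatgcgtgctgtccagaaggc
MRPL37: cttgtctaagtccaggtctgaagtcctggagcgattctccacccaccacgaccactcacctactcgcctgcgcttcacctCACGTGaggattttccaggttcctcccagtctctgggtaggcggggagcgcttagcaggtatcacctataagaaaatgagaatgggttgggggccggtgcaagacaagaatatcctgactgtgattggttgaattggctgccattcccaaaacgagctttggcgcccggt

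Motifs of ETS factors, YY1 and NRF1, which are known to act at nuclear genes for mitochondrial proteins, were searched in the same windows. The letters CCGGAAG, a core bound by ETS factors such as GABP, were in 28 of 67 members' windows on either strand (41.8%, interval 29.8 to 54.5%). They were in 10.7% of all RefSeq windows, 20.9% of windows of names listed in both libraries, 22.2% of those of N-Myc-binding promoters and 34.9% of those of cytosolic ribosomal protein genes. In 23 of these 28 windows a match began within 50 bases of the start, against 59.5% of matching windows of names listed in both libraries. AAGATGGCG, a core bound by YY1, was in 13 of 67 (19.4%, interval 10.8 to 30.9%), against 1.85% of all windows, 4.37% of windows of names listed in both libraries, 5.60% of those of N-Myc-binding promoters and 9.52% of those of cytosolic ribosomal protein genes. In 10 of the 13 windows (76.9%) a YY1 match began after the start, against 70.2% of matching windows of names listed in both libraries. This string contains the letters ATG. The members' intervals for both strings lay above the shares of all windows, of names listed in both libraries and of N-Myc-binding promoters, and overlapped the intervals of cytosolic ribosomal protein genes (23.3 to 48% for ETS and 3.58 to 19.6% for YY1).

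At least 1 of the ETS and YY1 strings was in 37 of 67 members' windows (55.2%), against 24.2% of windows of names listed in both libraries. MRPL38, MRPL52, MRPS10 and MRPS18A held both. GCGCATGCG, a core for the factor NRF1, was in 3 of 67 (4.48%, interval 0.933 to 12.5%), near the 4.11% of names listed in both libraries. These 3 were MRPL17, MRPL22 and MRPS18C. The TATA box letters TATAAA were in 3 of 67 (4.48%), namely MRPL54, MRPS15 and MRPS36, against 12% of all windows and 4.53% of names listed in both libraries. The ETS and YY1 strings can overlap, since the former ends and the latter begins with AAG. Of the control-only members, MRPL1 held none of the ETS, YY1, NRF1 and E-box strings in its window, and MRPL28 held an ETS match after its start.

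Stretches of 100 bases before the RefSeq start are shown for MRPL20, the first member in the N-Myc-binding table, and MRPL27, whose start lay 19 bp from that of EME1, with the CCGGAAG letters in capitals, and for MRPL52 with AAGATGGCG in capitals. They were chosen because each stretch holds 2 matches. They lie at chr1:1407294-1407393 on the minus strand, chr17:50373185-50373284 on the minus strand and chr14:22829787-22829886 on the plus strand of GRCh38.p14.
MRPL20: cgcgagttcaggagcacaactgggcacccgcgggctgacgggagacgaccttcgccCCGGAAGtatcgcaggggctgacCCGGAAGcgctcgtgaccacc
MRPL27: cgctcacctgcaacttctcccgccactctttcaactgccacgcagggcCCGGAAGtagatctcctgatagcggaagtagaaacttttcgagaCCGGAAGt
MRPL52: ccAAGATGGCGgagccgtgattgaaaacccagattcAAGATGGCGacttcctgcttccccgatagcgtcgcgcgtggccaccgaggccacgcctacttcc

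**Figure D4:**
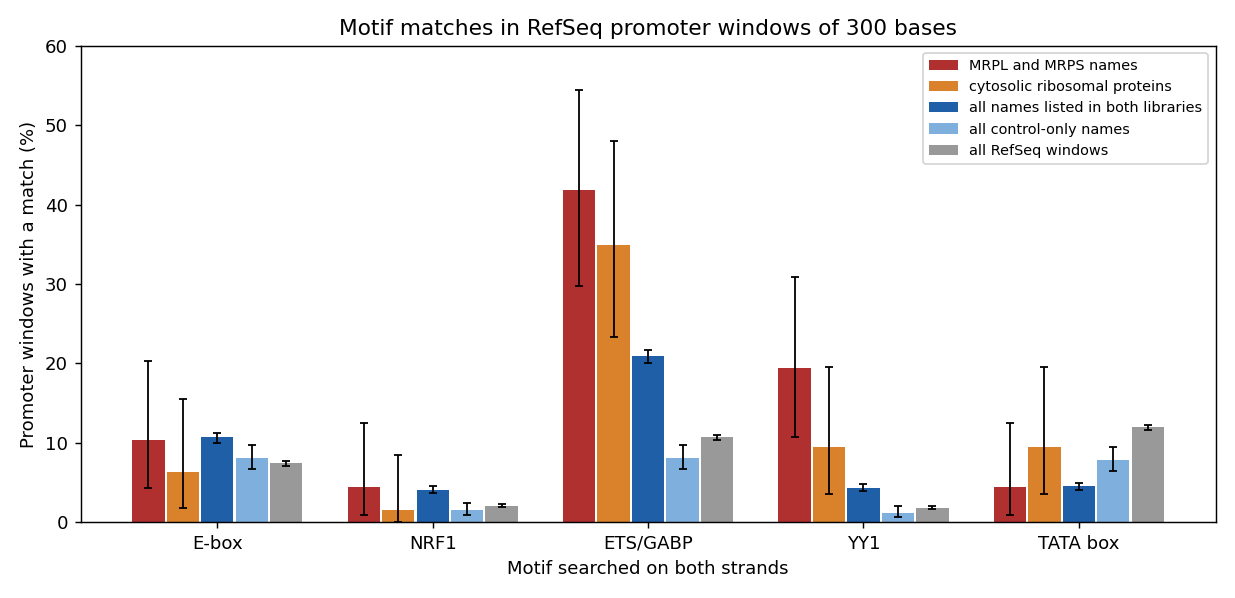
Percent of 300-base RefSeq promoter windows with a match to each motif on either strand, for mitochondrial ribosomal protein genes (red, 67 windows), cytosolic ribosomal protein genes (orange, 63), names listed in both libraries (blue, 9149), control-only names (light blue, 1231) and all windows (grey, 27305), with exact 95% intervals over windows. The ETS/GABP string stands at 41.8% and the YY1 string at 19.4% of members, against 20.9% and 4.37% of names listed in both libraries.

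Cytosolic ribosomal protein genes, whose products form the ribosome of the cytosol, were the nearest group for comparison. With control siRNA 78 were listed, of which 77 were also listed with WDR5 siRNA, and RPL39L, a paralogue of RPL39, was control-only (1.28%, interval 0.0325 to 6.94%). Their control-only share overlapped that of the mitochondrial group. Of 59 in the promoter tables, 58 were N-Myc-binding (98.3%, interval 90.9 to 100%). This interval lay above that of the mitochondrial ribosomal protein genes, 63.6 to 87.0%, so the share in the N-Myc-binding table was lower in the mitochondrial group. In the N-Myc-binding table their median row position was 50.9%, close to the 55.0% of the mitochondrial group.

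The other genes of mitochondrial translation were listed in both libraries with few exceptions. All 7 mitochondrial ribosome subunits or anchors listed under another form of name were, namely AURKAIP1, CHCHD1, DAP3, GADD45GIP1, ICT1 (now MRPL58), OXA1L and PTCD3. Of the 5 in the tables, 3 were N-Myc-binding (interval 14.7 to 94.7%). All 19 assembly and rRNA modification genes found were listed in both, among them ERAL1, which binds the small-subunit rRNA, and DDX28, a helicase of large-subunit assembly. ERAL1 was the exception among the 10 found in a promoter table, since the other 9 were N-Myc-binding (90%, interval 55.5 to 99.7%), against 49.5% of all promoters listed in both libraries. Of 15 translation factor and mRNA-handling genes, 14 were listed in both, including TUFM, the mitochondrial elongation factor Tu. The exception was MTRF1, a release factor gene with a non-binding promoter (chromosome 13, position 41837713). Of 22 mitochondrial tRNA-charging genes, 20 were listed in both, and VARS2, a valyl-tRNA synthetase, and PET112, an amidotransferase subunit, were control-only. Their N-Myc-binding share was 8 of 15 in the tables (53.3%, interval 26.6 to 78.7%), near that 49.5%. The lists are short, and the control-only interval of each held both the 2.63% of the mitochondrial ribosomal protein genes and the 13.5% of all names with a control peak.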

How the data were processed

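H3K4me3 ChIP-seq libraries from BE(2)-C cells, 1 per siRNA, were grouped by title and antibody. BWA 0.7.12, bedtools and the hg19 build are named, per the submitters' processing notes, without a role. The peak caller, its threshold and the definition of N-Myc binding were not given in the sources used here. The authors deposited gene names with a peak within 1 kb of a TSS and, per the file headers, a TSS coordinate and gene per promoter, with no measured value. The 1-based TSS was taken from the second coordinate. Depth is unknown, and IgG and input values were left aside.

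Each distinct name was classed by list and joined to promoters by name. A peak at a different TSS of the same gene counts too. Shares have 95% intervals over genes by the exact Clopper-Pearson method, and a count of 0 allows up to 3 counts of the total. RefSeq (GRCh38.p14) gave symbols, strands and promoter windows, and 76 of 76 members matched by symbol or synonym. Classes, pairs, motif searches and intervals were tested on simulated data. The members and lists were chosen with earlier results of these data known. Named genes were members not listed in both libraries, the 3 first and 3 last by row in each table, members with a listed TSS within 1 kb, and genes of the other lists not listed in both. Other names, the ETS, YY1, NRF1 and TATA motifs and the sequences of MRPS36, MRPL36, MRPL37, MRPL20, MRPL27 and MRPL52 were picked with the values in view. The tools were matplotlib 3.10.9, scipy 1.17.1, pandas 2.3.3 and numpy 2.4.6 under Python 3.11.15.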

Additional observations from a re-analysis of the deposited data

How the results depend on the processing

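No paired analysis was possible because each group holds 1 library, and no replicate could be left out. Counting protein-coding names only, adding the 7 mitoribosome subunits with other names, keeping single-row names, keeping members in a promoter table, leaving out members with another listed TSS within 1 kb, or counting MRPS11 and MRPL46 once (chosen after the data were seen) left the control-only share between 1.79 and 3.33%, the N-Myc-binding share between 75 and 78.2% and the control-peak share at 100%, each where the setting applies. The median row position stayed between 54.9 and 56.4% in the N-Myc-binding table and between 15.4 and 21.1% in the non-binding table. With 500 or 2000 bp in place of 1 kb, 14 and 17 members had a neighbouring TSS. With both E-box variants searched beside the E-box itself, 19 of 67 windows matched in place of 7, because more letter strings were searched, and 27.5% of all windows matched. A missing name is a missing call at unknown depth and does not show absence of H3K4me3.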

Other observations

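Regulators of mitochondrial gene expression, a short list of 9 genes, were N-Myc-binding in 7 of the 8 that were in the tables (87.5%, interval 47.3 to 99.7%), an interval that holds the 49.5% of all promoters listed in both libraries. NRF1, GABPA, TFAM, TFB2M, POLRMT, PPRC1 and PPARGC1B were the 7, all listed in both libraries, at 3.56% (PPARGC1B) to 54.1% (TFAM) of the N-Myc-binding table's length. The exception was PPARGC1A, which encodes the co-activator PGC-1alpha, a non-binding promoter (chromosome 4, position 23891700) listed with control siRNA only. ESRRA, in neither table, was listed in both libraries.

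Promoter windows of the members had a lower G+C content than those of names listed in both libraries (median 60% against 66.3%) at a like CpG ratio (0.868 against 0.859). Cytosolic ribosomal protein windows stood at 59.3% and 0.907. N-Myc-binding members had a median of 61.5% G+C and a CpG ratio of 0.886, and non-binding members 57.0% and 0.782. The highest G+C content was that of MRPS6 at 82.0%, followed by MRPL41 at 80.7%, and the lowest that of MRPL48 at 43.3%.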
